A study of Arabidopsis thaliana with 28 samples.

Results

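The 5 genes described here encode the basic helix-loop-helix (bHLH) transcription factors TMO5 (TARGET OF MONOPTEROS 5, AT3G25710), T5L1 (TMO5-LIKE1, AT1G68810), T5L2 (AT3G56770), T5L3 (AT2G41130) and LHW (LONESOME HIGHWAY, AT2G27230). They were chosen by locus identifier, and all 5 are among the 33201 genes of the expression table. RNA-Seq was performed on cells sorted by fluorescence from protoplasted root tips of 5-day-old Arabidopsis thaliana seedlings, ecotype Col-0, in 28 samples of 8 populations. Each sorted population came from a reporter line with GFP or VENUS. The labels name xylem stem cells from TMO5:3xGFP (Xyl, 4 samples), the whole stem cell niche from AGL42:GFP (SCN, 4 samples), the initial of cortex and endodermis from CYCD6:GFP (CEI, 3 samples) and protophloem from CVP2:NLS:VENUS (Protophlo, 4 samples). They also name epidermis/lateral root cap from FEZ:FEZ:GFP (Epi/LRC, 3 samples), columella stem cells from the J2341:GFP line (CSCs, 3 samples) and quiescent center cells from WOX5:GFP (QC, 3 samples). All were compared with meristematic non-stem cells (NSCs, 4 samples), which were sorted as negative for GFP from AGL42:GFP roots. No line carried a mutation according to the labels, and each population is defined by 1 reporter. The replicates are named as biological replicates, but the labels do not say how the root tips were pooled.

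In the early vascular tissue of the embryo and the root, the auxin response factor MONOPTEROS activates TMO5. Proteins of the TMO5 clade pair with LHW or its relatives, and these heterodimers promote the divisions that widen the vascular cylinder. Known targets of the dimer include LOG3 and LOG4, which release active cytokinin, and AHP6, which dampens the cytokinin response in the xylem axis. The dimer also activates ACL5, a thermospermine synthase, and SACL3, a bHLH protein that competes for LHW.

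The paralogs share the DNA-binding and dimerization region, and the following stretch is shown because it is where the encoded proteins of the 4 clade genes were most alike. Each line is 150 coding bases, spliced across an intron, from the 50-codon window with most identical residues among the 4 clade genes. Capitals mark the 81 bases identical in all 4 genes.
TMO5: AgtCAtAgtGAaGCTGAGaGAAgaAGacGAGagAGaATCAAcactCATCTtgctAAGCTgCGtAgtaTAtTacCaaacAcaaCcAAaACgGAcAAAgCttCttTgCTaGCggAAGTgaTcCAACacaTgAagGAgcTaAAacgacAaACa
T5L1: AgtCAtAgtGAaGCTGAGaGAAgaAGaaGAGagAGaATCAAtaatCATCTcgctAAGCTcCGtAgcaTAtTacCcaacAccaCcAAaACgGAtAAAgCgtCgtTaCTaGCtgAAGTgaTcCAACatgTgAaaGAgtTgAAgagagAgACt
T5L2: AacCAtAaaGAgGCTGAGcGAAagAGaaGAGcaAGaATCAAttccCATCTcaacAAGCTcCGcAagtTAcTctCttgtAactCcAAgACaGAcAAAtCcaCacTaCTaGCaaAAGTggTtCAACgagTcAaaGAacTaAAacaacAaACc
T5L3: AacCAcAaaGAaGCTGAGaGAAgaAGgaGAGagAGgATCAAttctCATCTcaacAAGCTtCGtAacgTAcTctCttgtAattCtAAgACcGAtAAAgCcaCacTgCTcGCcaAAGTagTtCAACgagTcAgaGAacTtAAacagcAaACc
In TAIR10.1 the stretch spans chr3:9370000-9370613 in TMO5 (plus strand), chr1:25861817-25862453 in T5L1 (plus strand), chr3:21029604-21030477 in T5L2 (minus strand) and chr2:17143567-17144281 in T5L3 (plus strand), each time from coding exon 1 into coding exon 2. TMO5 and T5L1 shared 84.7% of these bases and T5L2 and T5L3 shared 82.7%, whereas every pair across these 2 subgroups shared 64.7%. Over whole annotated transcripts the longest identical run was 39 bases between TMO5 and T5L1 and 29 bases between T5L2 and T5L3. Any other pair of the 5 genes shared at most 17 bases in a row. The reads were 100 bases long, which is more than any of these runs.

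The genes lie on 3 chromosomes. TMO5 is at chr3:9369499-9371487 (plus strand), T5L1 at chr1:25861094-25863534 (plus), T5L2 at chr3:21028902-21030754 (minus), T5L3 at chr2:17143157-17145283 (plus) and LHW at chr2:11650358-11654143 (plus). The clade genes have 2 exons each and LHW has 9, and 0 annotated genes overlap any of the 5. The 250 bases directly upstream of TMO5 (chr3:9369249-9369498, plus strand) are shown because this gene's promoter drove the reporter of the Xyl sort, although the fragment used in the reporter is not given in the labels.
TMO5 upstream: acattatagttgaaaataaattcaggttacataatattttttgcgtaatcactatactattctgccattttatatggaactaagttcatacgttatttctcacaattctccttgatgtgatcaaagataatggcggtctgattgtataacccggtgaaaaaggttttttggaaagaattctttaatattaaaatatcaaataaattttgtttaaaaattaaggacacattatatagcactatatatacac
The auxin response elements TGTCTC and TGTCGG and the G-box CACGTG, a motif bound by many bHLH proteins, were searched on both strands of this window in every gene. They were present in 10.95%, 4.16% and 6.49% of 27443 upstream windows, in the order named, and in 0 of the 5 windows of these genes.

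Values are FPKM, the fragments mapped to a gene scaled to its transcript length and to the total mapped in the sample, so levels can be compared between genes per length. The table holds no read counts, and the depth behind each value is unknown. Fold changes were fitted on log2(FPKM + 1), which understates the change of genes with a low FPKM, for the 22694 genes that reached an FPKM of 1 in 3 or more samples, all 5 genes included. A gene was called higher or lower at an adjusted p-value under 0.06 and a fold above 2, with limma and Benjamini-Hochberg adjustment within each comparison. The cells were bulk samples, in which fewer cells of a type and less RNA per cell cannot be told apart.

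Checks of the samples bear on these genes. SHR, a stele gene, was at 114 to 155 FPKM in the Xyl samples and at 0.219 to 3.49 FPKM in NSCs. The 5 xylem marker genes summed to 74.5 to 146 FPKM in Xyl and to 198 to 740 FPKM in NSCs. The late xylem protease XCP1 was at 10.7 to 32.0 FPKM in Xyl and 85.8 to 343 FPKM in NSCs, and XCP2 was at 0 to 6.14 FPKM in Xyl and 107 to 386 FPKM in NSCs. The part of these xylem transcripts of NSCs in the comparisons below was not tested. In Protophlo the 5 protophloem markers summed to 5.36 to 23.9 FPKM (median 6.06), against 12.7 to 30.2 FPKM in NSCs (median 19.6). The highest Protophlo sum rests on NAC045, at 23.8 FPKM in 1 sample and listed at 0 in the other 3. CVP2, the gene of the Protophlo reporter, averaged 1.79 FPKM in Protophlo and 1.10 FPKM in NSCs. CVP2 was highest in Xyl, at 19.0 FPKM, where it was called higher than in Protophlo (3.16 on the log2 scale, limma adjusted p = 6.83e-05), and averaged 7.43 FPKM in CSCs. The label Protophlo is therefore used here for the sort alone. Transcripts of vascular genes were present in all 3 CSCs samples. SHR was at 16.1, 41.3 and 11.6 FPKM in CSCs, all above NSCs, and was called higher (2.94 on the log2 scale, limma adjusted p = 0.002). The 5 xylem markers summed to 30.3 to 189 FPKM in CSCs, mostly from ACL5 at 26.3, 181 and 30.1 FPKM, while XCP1 was at 6.98, 7.97 and 0.0707 FPKM, VND7 was at most 0.165 FPKM, and VND6 and XCP2 were listed at 0. VND6 was also listed at 0 in every CEI, Epi/LRC and QC sample and in 3 of the 4 Xyl samples. CSCs replicate 2 had the highest SHR and ACL5 of the 3, and LOG3 (29.2 FPKM) and AHP6 (24.1 FPKM) were high in that sample alone among CSCs. Of the root cap genes, SMB averaged 57.5 FPKM in CSCs and 20.3 FPKM in NSCs and did not pass (limma adjusted p = 0.261). BRN1 and BRN2 were called lower in CSCs (-4.52 and -3.83 on the log2 scale, limma adjusted p = 0.00631 and 0.0152). FEZ, the gene of the Epi/LRC reporter, averaged 80.8 FPKM in CSCs and 1.32 FPKM in NSCs. It was called higher in CSCs (5.15 on the log2 scale, limma adjusted p = 8.79e-08). The columns of the CEI samples were assigned by elimination, because their names carry only the initial C. CYCD6, the gene of the CEI reporter, was at 1.48 to 22.7 FPKM in CEI. Its mean there was 8.68 FPKM, against 15.7 FPKM in CSCs and 1.24 FPKM in NSCs. It was not called in CEI against NSCs (1.34 on the log2 scale, limma adjusted p = 0.325). The ground tissue genes SCR and MGP were called higher in CEI than in NSCs (2.46 and 3.56, limma adjusted p = 0.0522 and 0.00592). Of the other reporter genes, WOX5 averaged 179 FPKM in QC and 3.16 FPKM in NSCs. FEZ averaged 147 FPKM in Epi/LRC and 1.32 FPKM in NSCs. AGL42 averaged 14.5 FPKM in SCN and 1.75 FPKM in NSCs, and was also at 14.5 FPKM in QC.

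TMO5 was highest in Xyl, the population sorted with its own promoter, and this is a description without a test. Its FPKM was 851, 1004, 1129 and 1340 in the 4 Xyl samples, against 16.4, 12.2, 7.83 and 5.75 in NSCs. Every Xyl sample was above every other sample. The labels do not say whether the reporter carries transcribed TMO5 sequence, so reporter transcripts cannot be told apart from those of the gene in Xyl.

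Outside Xyl, TMO5 was low and uneven. It was at 0.779, 1.17, 0 and 0 FPKM in SCN, at 3.27, 2.50 and 3.87 in CEI, and at 7.35, 0.0534, 2.28 and 0 in Protophlo. It was at 0.172, 16.4 and 0 FPKM in Epi/LRC, at 3.53, 82.0 and 0 in CSCs, and at 1.62, 0 and 0 in QC. The CEI samples were the most even of these, and CSCs replicate 2 had the highest value outside Xyl. SCN and QC were below every NSCs sample and were called lower than NSCs, by -2.95 ± 0.95 and -2.97 ± 1.02 on the log2 scale (SE, adjusted p = 0.039 and 0.0451, limma).

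T5L1, the closest paralog of TMO5, was also highest in Xyl, and its values did not choose any sample. It reached 185, 164, 204 and 228 FPKM in Xyl, against 25.8, 24.3, 8.87 and 11.6 FPKM in NSCs. The groups did not overlap, and 20.0% of all tested genes were called higher in Xyl than in NSCs. How many of all genes had groups that did not overlap was not counted for any comparison here. Its log2 fold change was 3.51 ± 0.72 (SE, limma adjusted p = 0.000351).

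In 5 of the other populations T5L1 was called lower than in NSCs. It was at 0, 2.21, 0 and 0 FPKM in SCN, at 1.23, 0.0296 and 0 in CEI, at 0.318, 0 and 0.227 in Epi/LRC, and at 3.71, 0 and 0 in QC. All of these samples were below the lowest NSCs sample, with log2 fold changes between -3.86 ± 0.78 in Epi/LRC and -3.34 ± 0.78 in QC (SE, limma adjusted p between 0.000824 and 0.00449). In CSCs it was at 3.14, 12.0 and 0 FPKM, and the call at -2.18 ± 0.78 (SE, limma adjusted p = 0.0279) was lost without CSCs replicate 3 (-1.22, adjusted p = 0.251), NSCs replicate 1 (-1.96, adjusted p = 0.0727) or NSCs replicate 2 (-1.98, adjusted p = 0.0693). CSCs replicate 2 overlapped the NSCs values. Protophlo samples were at 12.8, 0.0494, 3.73 and 3.98 FPKM, and the difference of -1.99 ± 0.72 (SE) did not pass (limma adjusted p = 0.0684). That difference passed when Protophlo replicate 1 was left out (-2.55, adjusted p = 0.0258), and also without CSCs replicate 2, CSCs replicate 3 or QC replicate 1 (adjusted p = 0.048, 0.0451 and 0.0572), libraries of other populations that share the fit.

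T5L3 was also highest in Xyl, at a lower FPKM than T5L1. It was at 95.2, 66.5, 105 and 116 FPKM in Xyl, against 16.6, 15.9, 3.70 and 10.5 FPKM in NSCs, a log2 fold change of 3.07 ± 0.80 (SE, limma adjusted p = 0.00309). The groups did not overlap, but with a pseudocount of 0.1 the adjusted p was 0.0975. Against NSCs it was called lower in Epi/LRC, with 1.17, 0 and 0 FPKM and a log2 fold change of -3.12 ± 0.87 (SE, limma adjusted p = 0.00907). It was also called lower in SCN (2.69, 1.85, 0 and 0 FPKM), Protophlo (1.15, 0.0727, 0.433 and 4.33 FPKM) and QC (1.28, 0 and 1.72 FPKM), at -2.65, -2.46 and -2.62 on the log2 scale (limma adjusted p = 0.0292, 0.042 and 0.0377), although Protophlo replicate 4 overlapped the NSCs values. CEI was at 4.27, 5.23 and 0.785 FPKM and did not pass. In CSCs it was listed at 0 in replicates 1 and 3 and was at 27.9 FPKM in replicate 2. The CSCs difference was -1.88 ± 0.87 (SE, limma adjusted p = 0.0873), and without CSCs replicate 2 it was -3.49 (adjusted p = 0.000853).

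T5L2 had the lowest FPKM of the clade in Xyl. It was at 10.6, 14.6, 18.7 and 25.4 FPKM in Xyl, against 0.346, 0.942, 2.15 and 0 FPKM in NSCs. The groups did not overlap, and the log2 fold change was 3.37 ± 0.62 (SE, limma adjusted p = 0.000122). No other population was called against NSCs in either direction. Its other values reached 6.45 FPKM in SCN replicate 3, 5.04 FPKM in CEI replicate 3 and 4.96 FPKM in CSCs replicate 2, and 12 of the 20 samples outside Xyl and NSCs were listed at 0.

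LHW had another order of populations. It was at 119, 82.0 and 135 FPKM in CSCs and at 35.1, 62.2 and 71.6 FPKM in QC. In Xyl it was at 33.7, 40.4, 44.4 and 51.2 FPKM, against 6.21, 6.72, 5.90 and 2.67 FPKM in NSCs. All samples of these 3 sorted populations were above every NSCs sample. The log2 fold changes against NSCs were 4.17 ± 0.59 in CSCs, 3.16 ± 0.59 in QC and 2.81 ± 0.55 in Xyl (SE, limma adjusted p = 9.33e-06, 0.00066 and 0.000216). In CSCs the stele gene SHR was also higher than in NSCs, as given above, and CSCs replicate 2, which had the most SHR, had the least LHW of the 3. The part of stele transcripts in the CSCs result was not tested.

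LHW was also called higher in CEI, SCN and Epi/LRC. It was at 29.0, 11.4 and 62.2 FPKM in CEI, at 12.4, 49.1, 10.4 and 23.5 FPKM in SCN and at 16.1, 13.4 and 26.1 FPKM in Epi/LRC, all above the highest NSCs value. The log2 fold changes were 2.23 ± 0.59, 1.77 ± 0.55 and 1.62 ± 0.59 (SE, limma adjusted p = 0.0184, 0.033 and 0.042). Protophlo was at 11.0, 5.11, 8.81 and 0.520 FPKM, overlapped NSCs and did not pass (-0.09 ± 0.55, SE, limma adjusted p = 0.943), and this difference was 0.04 with size factors.

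**Figure D1:**
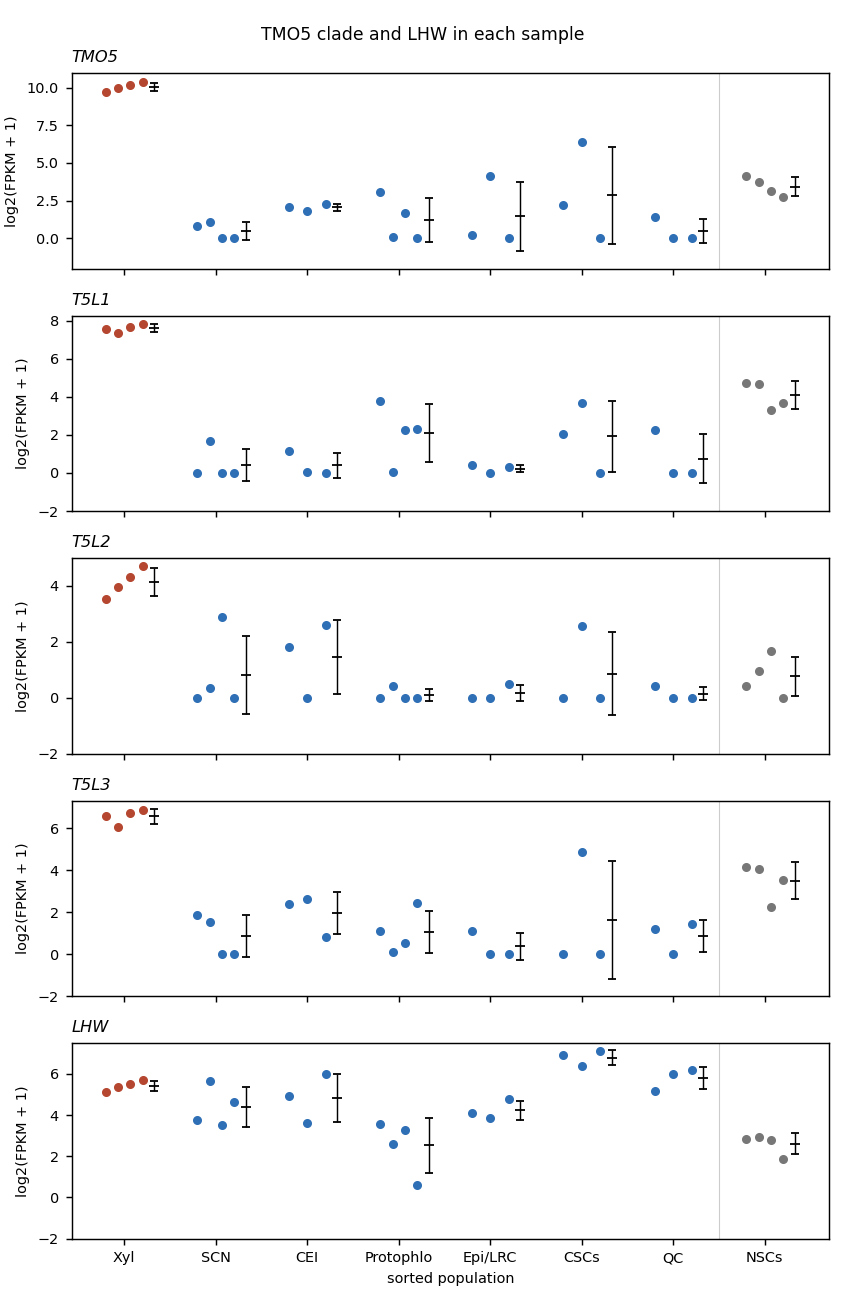
Points are log2(FPKM + 1) of each gene (one panel per gene, with its own scale) in each sample, replicates from left to right, and the bar beside them is the mean ± SD of the population. The 4 Xyl samples, chosen with the TMO5 promoter, sit above every other sample for TMO5 and also for T5L1, T5L2 and T5L3. How many of all genes show this was not counted. LHW is highest in the CSCs samples (82.0 to 135 FPKM) and lowest in Protophlo and NSCs.

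Ordered by mean FPKM, TMO5, T5L1, T5L2 and T5L3 were highest in Xyl, and in each the gap from Xyl to the population ranked after it exceeded the SD of either. For TMO5 the mean was 1081 ± 207 FPKM in Xyl (SD, n = 4), and for CSCs, ranked after it, 28.5 ± 46.3 FPKM (SD, n = 3), which rests on CSCs replicate 2. T5L1 averaged 195 ± 27.3 FPKM in Xyl, 5.15 ± 5.43 FPKM in Protophlo and 17.6 ± 8.66 FPKM in NSCs (SD, n = 4 each), and NSCs ranked after Xyl. T5L3 averaged 95.5 ± 21.0 FPKM in Xyl and 11.7 ± 5.98 FPKM in NSCs, which also ranked after Xyl, and T5L2 averaged 17.3 ± 6.33 FPKM in Xyl, 2.51 FPKM in CEI, which ranked after Xyl, and 0.859 ± 0.943 FPKM in NSCs (SD, n = 4 in Xyl and NSCs). For LHW the order was CSCs 112 ± 27.2, QC 56.3 ± 19.0, Xyl 42.4 ± 7.36, CEI 34.2 ± 25.8, SCN 23.9 ± 17.8, Epi/LRC 18.5 ± 6.67, Protophlo 6.36 ± 4.59 and NSCs 5.38 ± 1.83 FPKM (SD). For LHW the gaps exceeded the SD of either neighbour only between CSCs and QC and between Epi/LRC and Protophlo. With size factors the LHW means were 78.7 in CSCs, 45.3 in QC, 38.7 in Xyl and 5.54 in NSCs.

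Against NSCs, 34 combinations of gene and population were tested, TMO5 in Xyl being left out, and 9 were called higher and 11 lower. LHW gave 6 of the higher calls, and T5L1, T5L2 and T5L3 gave 1 each, in Xyl. T5L1 gave 5 of the lower calls, T5L3 gave 4 and TMO5 gave 2. All 7 comparisons share the NSCs samples, so their calls are not independent.

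The share of all tested genes called in the same comparison was often large. In Xyl 20.0% of all tested genes were called higher and 23.5% lower than in NSCs, and all 4 tested genes of the 5 were higher. In CSCs 22.6% were higher and 18.3% lower, and LHW was higher and T5L1 lower. In Epi/LRC 12.5% were higher and 16.6% lower, and LHW was higher and T5L1 and T5L3 lower. In QC 9.31% were higher and 9.49% lower, and LHW was higher and TMO5, T5L1 and T5L3 lower. In SCN 5.52% were higher and 8.89% lower, with the same 4 calls as in QC. In CEI 5.37% were higher and 5.04% lower, and LHW was higher and T5L1 lower. In Protophlo 3.51% were higher and 10.5% lower, and T5L3 was lower.

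**Figure D2:**
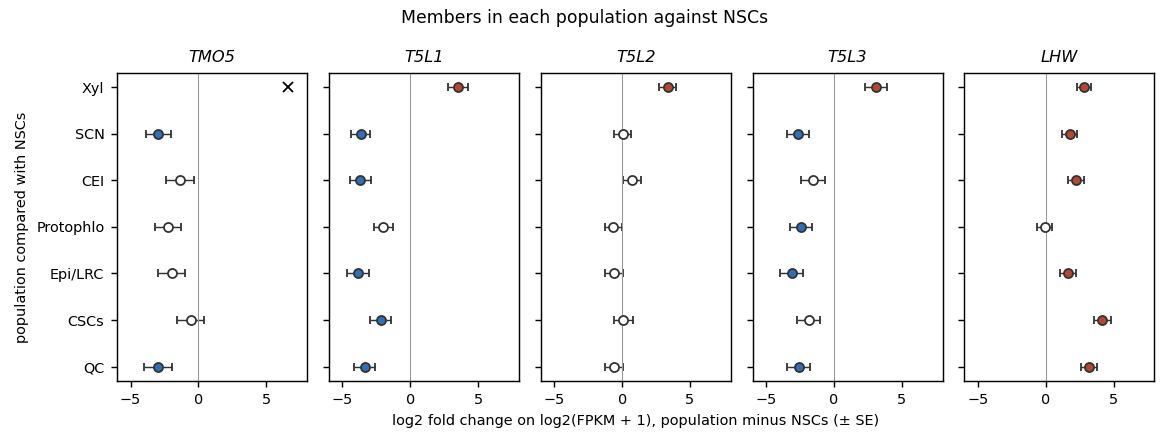
Log2 fold change on log2(FPKM + 1) of each gene in each population against NSCs, with the SE. Filled red points were called higher, filled blue points lower and open points were not called, and the cross is TMO5 in Xyl, which is shown without a test. LHW lies to the right of 0 in 6 populations, and T5L1 lies to the left of 0 in all populations except Xyl.

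Several of these calls were lost when 1 library was left out. Over these fits the log2 fold change of TMO5 was -3.17 to -2.72 in SCN and -3.43 to -2.74 in QC. The TMO5 call in SCN was lost without SCN replicate 3 or 4 or any 1 of the 4 NSCs replicates (adjusted p up to 0.0969), and that in QC without QC replicate 2 or 3 or any 1 NSCs replicate (up to 0.137). The T5L3 calls were lost without NSCs replicate 1, 2 or 4 in SCN, Protophlo and QC, and also without SCN replicate 3 or 4 (up to 0.0866), without Protophlo replicate 1, 2 or 3 (up to 0.125), and without any 1 QC replicate (up to 0.15). The LHW call was lost in SCN without SCN replicate 2 or 4 or NSCs replicate 4 (up to 0.135), in CEI without CEI replicate 1 or 3 or NSCs replicate 4 (up to 0.212), and in Epi/LRC without any 1 Epi/LRC replicate or NSCs replicate 3 or 4 (up to 0.137). Lower calls of TMO5 appeared in CSCs (-2.34, adjusted p = 0.0479) and Protophlo (-2.22, adjusted p = 0.0485) without CSCs replicate 2, and in Epi/LRC (-3.32, adjusted p = 0.0283) without Epi/LRC replicate 2. T5L3 was also called lower in CSCs without NSCs replicate 3 (-2.30, adjusted p = 0.0527). Adjusted p-values are from limma. The calls of T5L1, T5L2, T5L3 and LHW in Xyl, of LHW in CSCs and QC, of T5L1 in SCN, CEI, Epi/LRC and QC, and of T5L3 in Epi/LRC were kept in every one of the 28 fits that left out 1 library.

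Whether the paralogs differed between Xyl and the other sorted populations was asked with T5L1, T5L2, T5L3 and LHW. T5L1, T5L2 and T5L3 were called higher in Xyl than in each of the 6 others. For T5L1 the log2 fold changes lay between 5.50 ± 0.72 against Protophlo and 7.37 ± 0.78 against Epi/LRC (SE, limma adjusted p = 2.51e-06 and 2.93e-07). For T5L3 they lay between 4.61 ± 0.87 against CEI and 6.19 ± 0.87 against Epi/LRC (SE, limma adjusted p = 0.000806 and 1.85e-05). For T5L2 they lay between 2.67 ± 0.67 against CEI and 4.03 ± 0.62 against Protophlo (SE, limma adjusted p = 0.0113 and 1.48e-05), and the call against CEI was lost without CEI replicate 2 (1.94, adjusted p = 0.139). Of all tested genes, 11.6% were called higher in Xyl than in SCN, 3.92% than in CEI, 24.7% than in Protophlo, 3.70% than in Epi/LRC, 3.34% than in CSCs and 7.13% than in QC.

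LHW differed from this. It was called higher in Xyl than in Protophlo (2.90 ± 0.55, SE, limma adjusted p = 0.000144) and not in the other 5 comparisons. The differences, Xyl minus the other, were 1.04 ± 0.55 for SCN, 0.58 ± 0.59 for CEI, 1.19 ± 0.59 for Epi/LRC, -1.37 ± 0.59 for CSCs and -0.36 ± 0.59 for QC on the log2 scale (SE, limma adjusted p between 0.148 and 0.75). These do not show that the levels were equal. Without SCN replicate 2 the SCN difference was called (1.47, adjusted p = 0.0557). With only the 2 populations in the fit, LHW was called lower in Xyl than in CSCs (adjusted p = 0.0133) and higher in Xyl than in Epi/LRC (adjusted p = 0.0456).

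The make-up of the clade was read as the share of each gene in the summed FPKM of TMO5, T5L1, T5L2 and T5L3. TMO5 held 74.5%, 80.4%, 77.5% and 78.4% of the sum in Xyl, which the sort on its promoter can set, against 27.7%, 22.8%, 34.7% and 20.7% in NSCs. T5L1 held 13.1% to 16.2% in Xyl and 39.4% to 45.6% in NSCs, where it was the largest share in all 4 samples. T5L3 held 5.33% to 8.34% in Xyl and 16.4% to 37.9% in NSCs. T5L2 held 0.929% to 1.49% in Xyl and 0% to 9.52% in NSCs. The shares of these 3 genes in Xyl are lowered by TMO5 in the sum. Of the sum of T5L1, T5L2 and T5L3 alone, T5L1 held 61.8% to 66.8% in Xyl and 52.3% to 60.3% in NSCs, and T5L3 held 27.2% to 32.7% in Xyl and 25.1% to 47.7% in NSCs. In the other populations the sum was at most 21.3 FPKM in every sample except CSCs replicate 2 (127 FPKM), so the shares there rest on low values.

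**Figure D3:**
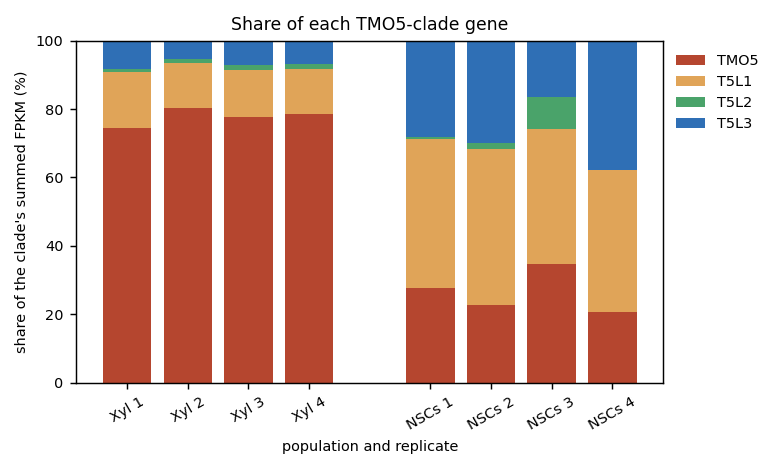
Stacked bars give the share (%) of each TMO5-clade gene in the summed FPKM of the 4 genes, for the 4 Xyl samples on the left and the 4 NSCs samples on the right. TMO5, whose promoter chose the Xyl cells, takes 74.5% to 80.4% in Xyl, and T5L1 takes the largest share in each NSCs sample.

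Because the clade proteins work with LHW, the summed FPKM of the clade was set against that of LHW in each sample. The ratio was 33.9, 30.9, 32.8 and 33.4 in Xyl, against 9.51, 7.94, 3.82 and 10.4 in NSCs. The gap rests on TMO5, whose promoter chose the Xyl cells. Without TMO5 in the sum the ratio was 8.64, 6.06, 7.37 and 7.20 in Xyl, against 6.88, 6.13, 2.50 and 8.26 in NSCs, and the groups overlapped. In SCN, CEI and QC the ratio was below 1 in every sample, and LHW exceeded the whole clade. In Epi/LRC it was 0.103, 1.22 and 0.0248, in CSCs it was 0.0561, 1.55 and 0, and in Protophlo it was 1.94, 0.101, 0.731 and 16.0. Protein amounts and pairing were not measured.

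**Figure D4:**
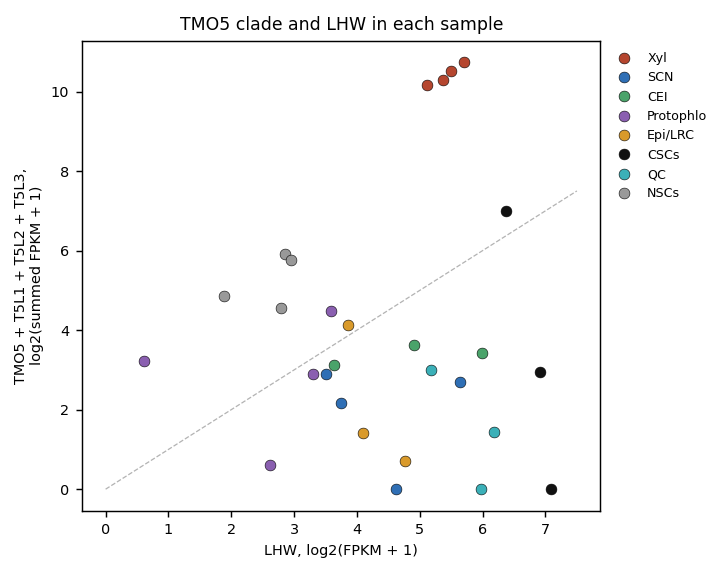
Each point is a sample, with LHW on the x axis and the summed FPKM of TMO5, T5L1, T5L2 and T5L3 on the y axis, both as log2(value + 1), and the dashed line marks equal values. The Xyl and NSCs samples lie above the line at ratios of 30.9 to 33.9 and 3.82 to 10.4, which without TMO5 are 6.06 to 8.64 and 2.50 to 8.26 and overlap, and all SCN, CEI and QC samples lie below it.

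Related genes were taken from 5 lists of 22 genes, of which 21 were in the table and tested. The lists hold genes upstream of these factors, other targets of MONOPTEROS, and genes that act with or after these factors. They were chosen with earlier results of these data known, and they include known targets of the TMO5 and LHW dimer. Xyl was sorted on the TMO5 promoter, so its share is a description and not a test. In Xyl 11 were called higher than in NSCs (52.4% of the lists, against 20.0% of all tested genes) and 4 lower (19.0%, against 23.5%). The median log2 fold change in Xyl was 1.70, against -0.20 over all tested genes. In CSCs 9 were higher (42.9%, against 22.6%) and 2 lower (9.52%, against 18.3%), with a median of 1.24, against 0.08 over all tested genes. SHR was also higher in CSCs, and its part in these counts was not tested. In the other populations the shares lay nearer to those of all tested genes. In QC 3 were higher (14.3%, against 9.31%) and 1 lower (4.76%, against 9.49%), and in Epi/LRC 3 were higher (14.3%, against 12.5%) and 5 lower (23.8%, against 16.6%). In SCN 1 was higher (4.76%, against 5.52%) and 2 lower (9.52%, against 8.89%), in CEI 0 were higher (against 5.37%) and 1 lower (4.76%, against 5.04%), and in Protophlo 0 were higher (against 3.51%) and 3 lower (14.3%, against 10.5%). The Xyl counts were 11 higher and 3 to 4 lower when any 1 library was left out. In CSCs there were 6 higher calls without replicate 2, 6 without replicate 3 and 7 without NSCs replicate 4, while without replicate 1 there were 11.

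Of the cytokinin genes, 3 of 5 were higher in Xyl and none lower. LOG3 averaged 196 ± 37.6 FPKM in Xyl and 4.03 ± 1.38 FPKM in NSCs (SD, n = 4 each), a log2 fold change of 5.32. LOG4 averaged 27.7 FPKM in Xyl and 2.96 FPKM in NSCs (2.87 on the log2 scale), and AHP6 averaged 104 FPKM in Xyl and 0.404 FPKM in NSCs (6.23 on the log2 scale). CKX3, a cytokinin oxidase, and BGLU44, a beta-glucosidase, were at 0.151 and 1.97 FPKM in Xyl and at 0.65 and 0.669 FPKM in NSCs and did not pass. Outside Xyl, LOG4 averaged 16.0 FPKM in CEI and 12.6 FPKM in QC.

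In the thermospermine list, 3 of 5 genes were higher in Xyl and none lower. SACL3 averaged 217 FPKM in Xyl and 2.66 FPKM in NSCs (5.97 on the log2 scale), ACL5 averaged 85.5 FPKM in Xyl and 1.81 FPKM in NSCs (5.05), and BUD2, which supplies the aminopropyl donor, averaged 4.97 FPKM in Xyl and 0.228 FPKM in NSCs (1.81). SAC51 and SACL1 were at 14.5 and 1.57 FPKM in Xyl and at 9.42 and 2.20 FPKM in NSCs and did not pass. SACL3, ACL5 and BUD2 were also called higher in CSCs, with and without CSCs replicate 2. SACL3 was called higher in QC, at 30.9 FPKM, against 2.66 FPKM in NSCs.

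Among the LHW relatives, LHL1 and LHL3 were higher in Xyl (8.59 and 2.90 FPKM, against 1.43 and 0.136 FPKM in NSCs), and LHL2 did not pass (3.28 FPKM in Xyl and 1.87 FPKM in NSCs). LHL1 was called higher in 5 of the 7 populations, among them CSCs at 14.0 FPKM. Every one of these means was below that of LHW in the same population.

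Among MONOPTEROS and its targets, 3 of 6 genes were higher in Xyl and 2 lower. IAA12 (BODENLOS), the repressor of MONOPTEROS, averaged 42.6 FPKM in Xyl and 4.10 FPKM in NSCs, TMO3 averaged 70.1 FPKM in Xyl and 11.9 FPKM in NSCs, and the HD-ZIP III gene ATHB8 averaged 70.4 FPKM in Xyl and 5.73 FPKM in NSCs. TMO7, a small mobile bHLH protein, averaged 15.8 FPKM in Xyl and 55.0 FPKM in NSCs, and TMO6, a DOF factor, averaged 2.13 FPKM in Xyl and 16.6 FPKM in NSCs, and both were lower. ARF5, which encodes MONOPTEROS itself, was at 101 FPKM in Xyl and 52.5 FPKM in NSCs and did not pass (0.90 ± 0.52, SE, limma adjusted p = 0.172). It was called higher in CSCs (163 FPKM) and lower in Protophlo (6.45 FPKM). TMO7 was called higher in CSCs, QC and Epi/LRC. Both DOF genes of the downstream list were lower in Xyl, DOF2.1 at 1.15 FPKM in Xyl and 14.1 FPKM in NSCs, and DOF6 listed at 0 in every Xyl sample and at 3.24 FPKM in NSCs.

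**Figure D5:**
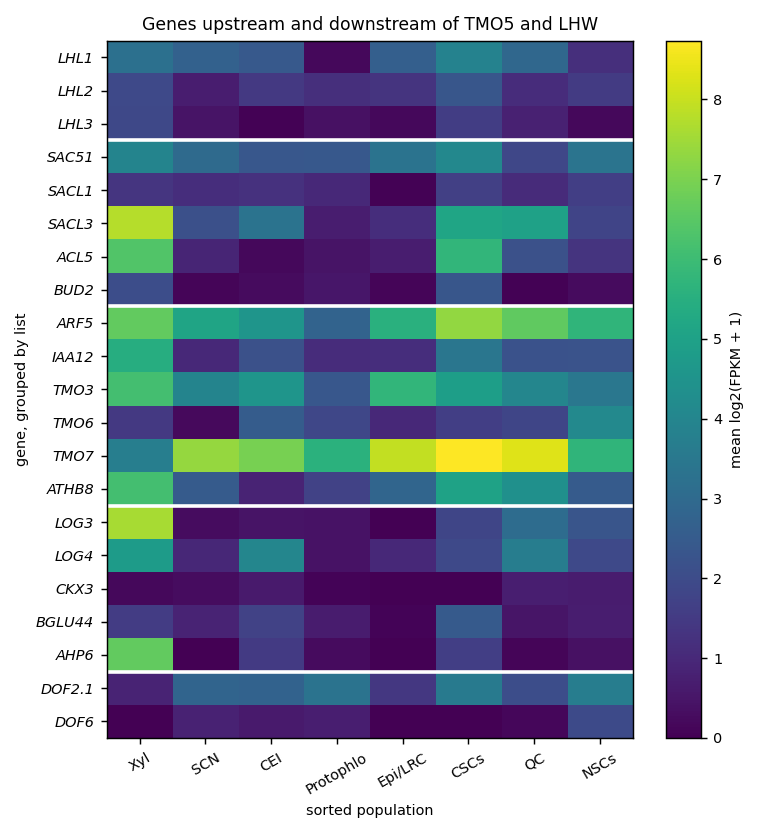
Colours give the mean log2(FPKM + 1) of the 21 list genes (rows, lists separated by white lines) in the 8 populations (columns). SACL3, ACL5, LOG3 and AHP6 are brightest in Xyl, whereas ARF5 and TMO7 are brightest in CSCs.

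The genes whose pattern was most like each of the 5 were ranked by Pearson's r of log2(FPKM + 1) over the 28 samples. These are descriptions. For the genes named in this paragraph, r was not taken without the 4 Xyl samples, in which the clade genes were highest. NAC076 (VND2), a NAC factor of xylem vessel formation, ranked first for TMO5 (r = 0.942), T5L1 (0.952) and T5L3 (0.932). It averaged 51.0 ± 6.57 FPKM in Xyl and 4.22 ± 0.575 FPKM in NSCs (SD, n = 4 each). The others for TMO5 were AT1G54200, AT5G43870, AT1G62690 and AHP6 (0.919), and those for T5L1 were AT5G43870, AT5G01070, ANAC026 (VND5, 0.919) and AT2G28410. For T5L2 they were AHP6 (0.887), SCPL35, AT1G62690, PID2 and AT5G50090, and for T5L3, after NAC076, they were AT5G43870, AT2G28410, T5L1 (0.898) and WAT1. The ranks differed when r was taken over the 8 population means. There AT4G37080 ranked first for TMO5 (0.983), and NAC076 was not among its 5 nearest genes. NAC076 ranked 3rd for T5L1 and 2nd for T5L3, and AHP6 was not among the 5 nearest genes of TMO5 or T5L2.

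For LHW the nearest genes were AT3G30300 (r = 0.938), AT3G21100, RLK902 (0.928), AT3G20260 and AT5G25590, and none of these was among the nearest genes of the clade. RLK902, a receptor-like kinase, averaged 152 FPKM in CSCs, 55.3 FPKM in Xyl and 4.44 FPKM in NSCs. Between members, r over the 28 samples was 0.904 for TMO5 and T5L1, 0.887 for TMO5 and T5L3 and 0.898 for T5L1 and T5L3, and r of LHW with the clade genes lay between 0.01 and 0.28. Over the 24 samples without Xyl, r was 0.685 for TMO5 and T5L1, 0.656 for TMO5 and T5L3 and 0.716 for T5L1 and T5L3. For T5L2 it was 0.334 with TMO5, 0.0855 with T5L1 and 0.229 with T5L3. For LHW without Xyl it was -0.045 with TMO5, -0.349 with T5L1, 0.126 with T5L2 and -0.312 with T5L3. The samples share preparation by sorting and amplification, and many of these values are near 0.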

How the data were processed

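RNA was measured in 28 samples of sorted root cells. The authors mapped the single-end reads and deposited FPKM per gene and sample. The paper names Bowtie, Tuxedo and Rsubread, and the submitters' processing notes name TopHat2 2.0.13, Cufflinks 2.1.1 and TAIR10. No normalization between samples beyond FPKM is stated, and without counts the study's PoissonSeq test could not be used. Column names, which hold the initial of the marker and a number, were matched to titles, and those of CEI were what remained after CVP2 was matched.

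Values were fitted as log2(FPKM + 1) with limma 3.58.1 (R 4.3.3, empirical Bayes with a trend, a mean per population, all samples in 1 fit), after a check on simulated data. TMO5 in Xyl was left out of every count. The members and lists were chosen with earlier results of these data known. Named were the 5 genes, the list genes, the marker genes and the 5 genes with the highest r to each member. SACL2 was not analysed here. No label gives a batch. Over all populations together, the same replicate number did not pair samples (11 of 90 same-number pairs correlated above 0.1). The median r was -0.015 for the same number and 0.004 for different numbers. SCN and NSCs both came from AGL42:GFP roots, and whether their replicates pair was not tested on its own. The calls in SCN against NSCs treat them as independent. Sequences and positions are from the RefSeq TAIR10.1 genome and annotation. The encoded proteins of the paralogs were aligned with MAFFT 7.526, and the chosen window was read back to coding bases. Python 3.11.15, numpy 2.4.6, pandas 2.3.3 and matplotlib 3.10.9 were used. Alternatives were a pseudocount of 0.1, no filter, size factors, TPM, no trend, the replicate block, 2 populations alone, an adjusted p-value under 0.05, SCN left out, and each of the 28 samples left out. The p-values rest on 3 or 4 samples per population. In the main fit the spread they use was pooled within populations over all 28 samples, so it is not that of the compared populations alone.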

Additional observations from a re-analysis of the deposited data

Results flagged for a closer look

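Of 28 groups of 4 samples examined for a sample far from the others, 4 held one. Chance picks out about 1 in 20 groups of spread values, but in 2 of these 4 groups the other 3 values were 0, so that any value above 0 would have been picked out. T5L1 in SCN replicate 2 was at 2.21 FPKM and was listed at 0 in the other SCN samples. T5L2 in SCN replicate 3 was at 6.45 FPKM, against 0.276 FPKM and 2 values of 0 in the others. T5L2 in Protophlo replicate 2 was at 0.342 FPKM, with 0 in the others. The ratio of the clade to LHW in Protophlo replicate 4 was 16.0, where LHW was at 0.520 FPKM.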

How the results depend on the processing

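Of the 39 calls, 29 were kept in all fits that left out 1 library and 28 of these also under every other alternative. The 9 higher calls against NSCs ranged from 6 to 9 and the 11 lower calls from 5 (without NSCs replicate 1 or 2) to 15 when 1 library was left out, and 6 lower calls were left with a pseudocount of 0.1 (or without NSCs replicate 4). The 19 higher calls in Xyl against the other populations ranged from 18 to 20, and the lower calls stayed at 0 in these fits but were 1 with 2 populations alone. Directions changed only for differences that were not called with all samples. T5L2 in SCN against NSCs was -0.52 with a pseudocount of 0.1 and -0.03 with size factors (-0.64 to 0.35 leaving out 1 library), and T5L2 in CSCs was -0.62 and -0.04 (-0.76 to 0.53). LHW in Protophlo against NSCs was 0.04 with size factors (-0.45 to 0.55), TMO5 in CSCs was -2.34 to 0.84, and LHW in Xyl against CEI was -0.02 to 1.15. The cause was not tested. The call of LHW in Epi/LRC against NSCs ended with the replicate block (1.44, limma adjusted p = 0.0799), which changed no other call, and also with size factors (0.0682) and a pseudocount of 0.1 (0.0692). That pseudocount also ended the calls against NSCs of LHW (0.064), T5L3 (0.0679) and TMO5 (0.0612) in SCN, of T5L3 in Protophlo (0.134), QC (0.109) and Xyl (0.0975) and of T5L1 in CSCs (0.103), and that of T5L2 in Xyl against CEI (0.111). T5L1 in CSCs was also lost with 2 populations alone (0.071), and TMO5 in QC without the filter (0.0698), whereas T5L3 in CSCs was called with size factors (0.0486). In the pairing check 4 of 28 samples correlated best with their own number. Size factors moved the median of all genes against NSCs by -0.30 in CSCs, -0.22 in QC, -0.14 in Epi/LRC, -0.11 in Xyl, -0.11 in SCN and 0.10 in Protophlo, and by -0.21 in Xyl against Protophlo. The share of higher among called genes was 38.1% with size factors and 55.2% as deposited in CSCs, 29.7% and 49.5% in QC, 35.8% and 25.1% in Protophlo, and in Xyl 46.0% and 56.1% against Protophlo and 43.2% and 26.1% against CSCs. With TPM it was 28.5% and as deposited 40.0% in Xyl against QC. The mean ratio of the clade to LHW in Xyl was 7.32 with TMO5 left out of the sum, an alternative chosen after seeing the data, and 32.8 with it. Depth is unknown, so values near 0 cannot be given a limit.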
